A study of Mus musculus with 3 samples.

Results

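The genes described here build the hair shaft. They were chosen by name: every gene whose symbol begins with Krtap, 12 listed hair keratins, *S100a3*, *Prr9* and *Gm11563*. Of the 32285 genes in the matrices, 71 met the rule, comprising 57 *Krtap* genes, 11 hair keratins and the genes listed last. *Krt85*, the remaining listed keratin, was not found under that symbol and was not analysed here. The rule itself is by name and holds no measured value, but it was set with earlier results of these data known.

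Skin wounds of adult male C57BL/6J mice, made by biopsy punch in shaved dorsal skin, were collected 3, 7 and 14 days after injury (Day 3, Day 7, Day 14), 1 section for each, with no genetic change or added treatment. The tissue was harvested with a wider punch than the one that made the wound. The authors' maps of the sections label wound site, intact skin and muscle. Wound and intact skin were not separated here, so the values do not place hair genes in either. RNA was captured on Visium slides, in which each spot carries a positional barcode and each captured molecule is counted once by its unique molecular identifier (UMI). The spots marked as under tissue numbered 664, 549 and 697 and held 1772259, 4442962 and 4611723 UMIs, in the order of the days. The days had no replicate sections, so day, animal and place of the cut cannot be told apart and no test between days was made. Levels are UMIs per 1000000 UMIs of the section (CPM), with exact Poisson 95% intervals that cover counting error only. Sums and levels of a section cover its marked spots only, unless stated.

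A hair shaft is made by cells that leave the matrix at the base of a growing follicle, stop dividing and fill with keratin. Type I and type II hair keratins pair to form filaments. Keratin-associated proteins (KAPs), which are small proteins rich either in cysteine or in glycine and tyrosine, form the matrix between the filaments, and their cysteines form disulphide bonds with each other and with the keratins. The shaft is surrounded by the inner root sheath, which uses its own keratins, *Krt71* among them. In resting follicles neither the shaft genes nor the sheath genes are strongly transcribed. A UMI marks one captured molecule by its 3′ end, so levels of different genes are given with no correction for length.

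The 57 *Krtap* genes and *Gm11563*, an unnamed gene that lies among them on chromosome 11, were sorted by the codons of their coding sequences in the GENCODE M21 annotation of GRCm38. Genes with at least 30% cysteine codons were called ultra-high sulphur (22 genes), those with at least 35% glycine and tyrosine codons and less cysteine high glycine-tyrosine (15 genes), and the others high sulphur (21 genes). The most abundant Day 14 member of each class is shown because the classes differed in how many of their genes were detected. *Krtap28-10* is added as a gene that exceeds both limits. Each line gives coding sequence from the start codon, 5′ to 3′. Capitals mark the in-frame cysteine codons of *Krtap4-1* and *Krtap3-3*, the glycine and tyrosine codons of *Krtap8-1*, and all of these codons in *Krtap28-10*.
Krtap4-1: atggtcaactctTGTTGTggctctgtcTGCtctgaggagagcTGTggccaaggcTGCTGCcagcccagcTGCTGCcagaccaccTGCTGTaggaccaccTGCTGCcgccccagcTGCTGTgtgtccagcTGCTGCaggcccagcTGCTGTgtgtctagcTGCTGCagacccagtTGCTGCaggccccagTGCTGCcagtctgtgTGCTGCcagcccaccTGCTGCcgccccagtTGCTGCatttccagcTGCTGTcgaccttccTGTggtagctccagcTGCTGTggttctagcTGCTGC
Krtap28-10: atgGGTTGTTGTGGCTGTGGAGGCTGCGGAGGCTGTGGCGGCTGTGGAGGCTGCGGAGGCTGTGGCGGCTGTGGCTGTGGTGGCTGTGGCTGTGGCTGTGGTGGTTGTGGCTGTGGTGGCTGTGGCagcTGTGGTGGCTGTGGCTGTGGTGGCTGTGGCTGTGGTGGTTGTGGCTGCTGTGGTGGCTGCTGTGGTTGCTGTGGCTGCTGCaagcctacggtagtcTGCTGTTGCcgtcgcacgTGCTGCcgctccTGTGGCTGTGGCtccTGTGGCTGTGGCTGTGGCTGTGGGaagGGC
Krtap3-3: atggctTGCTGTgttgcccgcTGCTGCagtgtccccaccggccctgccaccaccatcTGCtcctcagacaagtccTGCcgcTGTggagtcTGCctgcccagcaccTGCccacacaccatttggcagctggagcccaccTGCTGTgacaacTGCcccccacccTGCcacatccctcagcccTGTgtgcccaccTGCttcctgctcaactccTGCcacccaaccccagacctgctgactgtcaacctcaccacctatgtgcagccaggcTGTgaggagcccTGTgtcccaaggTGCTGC
Krtap8-1: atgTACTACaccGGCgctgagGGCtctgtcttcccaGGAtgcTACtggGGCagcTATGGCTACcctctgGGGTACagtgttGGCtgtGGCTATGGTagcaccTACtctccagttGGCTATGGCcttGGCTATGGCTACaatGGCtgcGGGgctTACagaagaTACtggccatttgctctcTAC
The *Krtap4-1* line is the first 300 of 507 coding bases (chr11:99627883-99628182, minus strand) and holds 37 cysteine codons among 100, mostly as adjacent pairs. The *Krtap28-10* line is the first 300 of 357 bases (chr1:83042118-83042417, minus strand), with 41 cysteine and 45 glycine or tyrosine codons among 100. *Krtap3-3* is shown whole (chr11:99550513-99550809, minus strand), with 20 cysteine codons among 99. *Krtap8-1* is also whole (chr16:89487725-89487907, minus strand), with 29 glycine or tyrosine codons and 3 cysteine codons among 61.

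Transcripts of these genes were close to absent in the Day 3 and Day 7 sections and abundant in the Day 14 section. The 71 genes together gave 18 UMIs in the Day 3 section, 40 in that of Day 7 and 14755 in that of Day 14. Their summed level stood at 10.2 CPM (6.02 to 16.1) and then 9.0 CPM (6.43 to 12.3) before it reached 3199 CPM on Day 14 (3148 to 3252). The Day 14 section thus stood 315-fold above Day 3 (199 to 532) and 355-fold above Day 7 (261 to 498), whereas Day 7 over Day 3 was 0.886 (0.497 to 1.64) and could not be distinguished from no change at this depth. Without *Krtap3-2* and *Krt32*, which gave most of the early UMIs, the folds were 916 over Day 3 (421 to 2495) and 1967 over Day 7 (955 to 4894), and with all spots of the slide the log2 ratio over Day 3 was 7.33 in place of 8.30. At least 1 UMI was found for 7 genes on Day 3, 7 on Day 7 and 54 on Day 14. Counting a gene as on with 10 or more UMIs, 46 were on at Day 14, against 0 at Day 3 and 1 at Day 7, or 64.8% of the 71. The share of all genes that were on by this rule in each section was not computed, and the sections differ in depth. Over pairs of sections, 13939 of all 32285 genes had 10 or more UMIs in Day 3 and Day 14 together, and 13689 in Day 3 and Day 7 together. In bulk-like sums such as these, fewer hair-forming cells in a section and less RNA per cell cannot be told apart.

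Gene by gene, 45 of the 71 members were at least 2-fold higher on Day 14 than on Day 3 and 46 at least 2-fold higher than on Day 7. Among all genes with 10 or more UMIs over the sections compared, 16.6% and 13.5% were that much higher in the same comparisons, and 9.28% and 9.48% that much lower, against 0 members. Only 46 members reached the 10 UMIs, and nearly all reached them through Day 14 alone, so a ratio in that direction was fixed by the filter and these counts describe the set without supporting it. The median log2 ratio of the 46 was 4.39 against Day 3 and 5.68 against Day 7, beside 0.19 and 0.13 over all genes tested. Between Day 7 and Day 3, 2 members reached the minimum and neither passed 2-fold, while 10.8% of all genes were higher by that much and 9.24% lower.

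**Figure D1:**
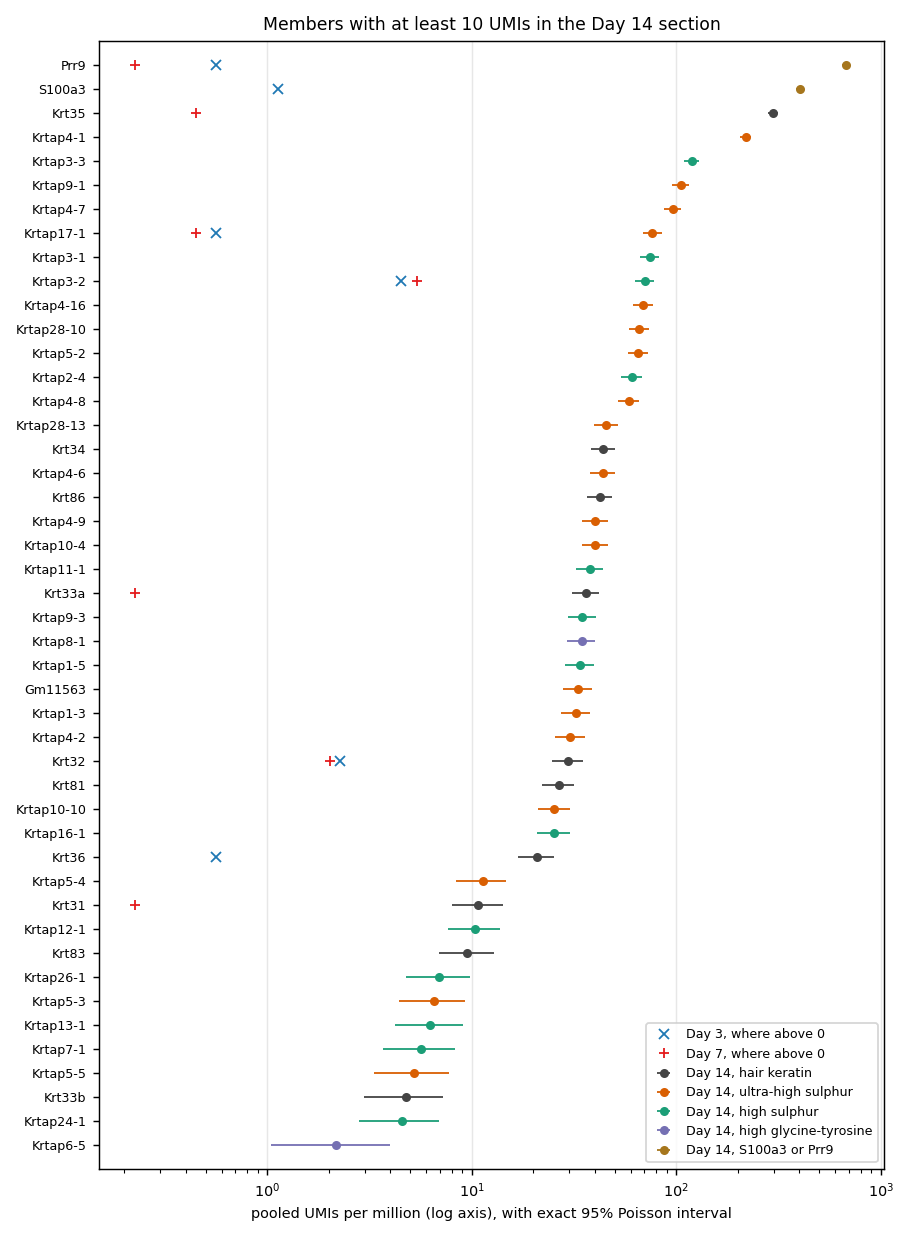
Pooled level of the 46 genes with at least 10 UMIs on Day 14, in CPM on a log axis, ordered by level; circles are Day 14 with exact 95% Poisson intervals, coloured by class, and crosses are Day 3 and Day 7 where above 0. *Prr9* leads at 673 CPM, and of the few early values only those of *Krtap3-2* and *Krt32* exceed 2 CPM.

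Among the keratins, the type I gene *Krt35* was by far the most abundant. *Krt35*, a keratin of the earliest shaft-forming cells above the matrix, gave 0 UMIs in the Day 3 section, 2 in the Day 7 section and 1373 in the Day 14 section. Its Day 14 level of 298 CPM (282 to 314) was at least 176-fold above Day 3, with 3 UMIs taken as the floor for a count of 0, and its log2 ratio over Day 7 was 9.37 (7.51 to 12.42). All 7 listed type I keratins were on at Day 14. After *Krt35* came *Krt34* with 203 UMIs, *Krt33a* with 167, *Krt32* with 136, *Krt36* with 96, *Krt31* with 50 and *Krt33b* with 22. *Krt31*, *Krt33a*, *Krt33b* and *Krt34* are keratins of the cortex, the bulk of the shaft, and *Krt32* is a keratin of its cuticle, the outermost layer of scales. The intervals of *Krt34* (38.2 to 50.5 CPM) and *Krt33a* (30.9 to 42.1) overlapped, as did those of *Krt33a* and *Krt32* (24.7 to 34.9).

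The type II partners were lower. *Krt86* gave 195 UMIs, *Krt81* 123 and *Krt83* 44, while *Krt84*, a type II keratin known mainly from the tongue, gave 4. Type I keratins summed to 444 CPM (425 to 464) and the type II keratins found to 79.4 CPM (71.4 to 87.9). *Krt85* is missing from the second sum, so the types are not fully compared. *Krt87* with 171 UMIs and *Krt82* with 4 are type II hair keratins outside the rule. On Day 3 and Day 7 the type II members gave 1 and 0 UMIs.

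The KAP genes supplied about as many UMIs as all other members together. They summed to 1598 CPM on Day 14 (1562 to 1635), with 7371 of the 14755 member UMIs, and the 11 keratins to 523 CPM (503 to 545), with 2413. *Prr9* supplied 21.0% of member UMIs and *S100a3* 12.7%. Of the 58 KAP genes, 34 were on, 7 more had 1 to 9 UMIs and 17 had none, each 0 allowing a level of up to 0.651 CPM at 3 counts.

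The ultra-high sulphur class dominated. Of its 22 genes 19 were on, and they summed to 1069 CPM (1039 to 1099), which was 66.9% of the KAP UMIs. *Krtap4-1*, whose paired cysteine codons are shown above, gave 0, 0 and 1009 UMIs in day order and stood at 219 CPM on Day 14 (205 to 233), at least 129-fold above Day 3 and at least 324-fold above Day 7. The *Krtap4* subfamily, with 7 of 8 genes on, made up 557 CPM (536 to 579). *Krtap9-1* followed with 483 UMIs, *Krtap4-7* with 444, *Krtap17-1* with 353, *Krtap4-16* with 317, *Krtap28-10* with 304 and *Krtap5-2* with 301. Of these only *Krtap17-1* had UMIs on earlier days, with 1 on Day 3 and 2 on Day 7. *Gm11563*, which has no Krtap symbol, fell in this class by its codons and gave 0, 0 and 152 UMIs.

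The high sulphur class was second, with 13 of 21 genes on and 491 CPM (471 to 512). The *Krtap3* genes carried most of it, at 264 CPM (249 to 279). *Krtap3-3* gave 0, 0 and 551 UMIs, *Krtap3-1* 0, 0 and 342, and *Krtap3-2* 8, 24 and 324. *Krtap2-4* with 279 UMIs, *Krtap11-1* with 174, *Krtap9-3* with 160 and *Krtap1-5* with 156 were next. *Krtap16-1*, *Krtap12-1*, *Krtap26-1*, *Krtap13-1*, *Krtap7-1* and *Krtap24-1* were on at lower levels, from 116 down to 21 UMIs. The intervals of *Krtap3-1*, *Krtap3-2*, *Krtap4-16*, *Krtap28-10* and *Krtap5-2* all overlapped, between 58.1 and 82.5 CPM, so their order is not resolved.

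The high glycine-tyrosine class was barely detected. Only 2 of its 15 genes were on, *Krtap8-1* with 159 UMIs and *Krtap6-5* with 10, and the class summed to 38.8 CPM (33.3 to 44.9), or 2.43% of the KAP UMIs. Of the other genes 9 gave no UMI, among them *Krtap6-1*, *Krtap20-2*, *Krtap21-1* and 4 of the 6 *Krtap19* genes, and 4 gave between 1 and 7. *Krtap7-1*, with 29.9% glycine and tyrosine codons, lay just under the limit of the class, and *Krtap8-1*, with 47.5%, was the lowest inside it. *Krtap8-1* was thus the least rich in glycine and tyrosine of the class and its only gene above 10 UMIs.

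**Figure D2:**
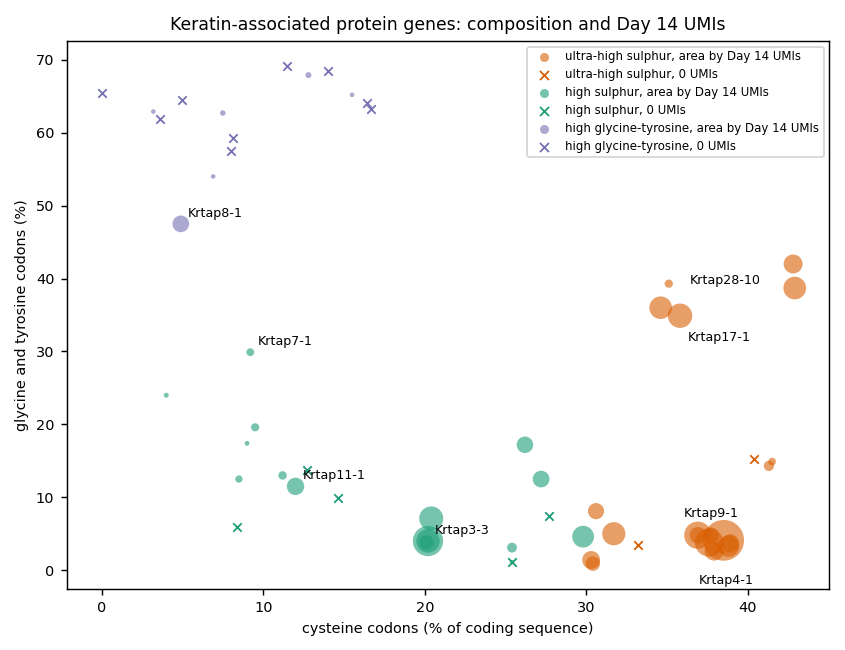
Each of the 58 KAP genes by the share of cysteine codons (x axis, percent) and of glycine and tyrosine codons (y axis, percent), with circle area proportional to Day 14 UMIs plus a small constant and crosses for genes with 0 UMIs. The large circles lie at high cysteine, and most genes above 50% glycine and tyrosine are crosses or the smallest circles.

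The same split appeared along the chromosomes, where KAP genes stand in clusters. On chromosome 11, 18 of 24 genes were on and summed to 1222 CPM, and on chromosome 16, which holds all 15 high glycine-tyrosine genes, 7 of 24 were on and summed to 101 CPM. The small clusters on chromosomes 1, 7 and 10 had 2 of 2, 4 of 5 and 3 of 3 genes on. Between the named KAP genes of the clusters the annotation holds 50 further protein-coding genes with provisional symbols, of which 49 were in the matrices. None had a UMI on Day 3 or Day 7, and on Day 14 they gave 1953 UMIs, with 11 of them on. Chromosome 11 held 8 of the 11, led by *Gm11567* with 392 UMIs, *Gm11562* with 275 and *Gm11938* with 250, and *A030005K14Rik* gave 242 on chromosome 1. These genes were looked at after the member values had been seen.

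Near-identical copies can lose or exchange reads. Of the windows of 90 bases in the last 500 transcript bases, *Krtap4-13*, which had no UMI, shared 80.5% with other genes, *Krtap5-1*, also at 0, 33.3%, *Krtap10-4* 27.0%, *Krtap5-2* 17.8% and *Krtap3-3* 12.2%. *S100a3* shares its strand and 13.9% of its windows with an overlapping gene model. The values of these genes are uncertain to that extent. *Prr9*, *Krtap10-10*, *Krtap12-1* and *Krtap15* also overlap other genes on their strand, with 0.0% of their windows shared. The part of such overlaps in their counts was not tested.

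*Prr9* and *S100a3* were the leading genes of the whole set. *Prr9* encodes a small proline-rich protein and lies on chromosome 3 (92122204 to 92123947 in GRCm38), in the region of the cornified envelope genes. It gave 1 UMI each on Day 3 and Day 7 and 3104 on Day 14, a level of 673 CPM (649.6 to 697) and a log2 ratio of 10.22 over Day 3 (7.74 to 15.52) and 11.55 over Day 7 (9.07 to 16.85). *S100a3*, a cysteine-rich calcium-binding protein known from the hair cuticle, gave 2, 0 and 1867 UMIs. Its Day 14 level of 405 CPM (387 to 424) had a log2 ratio of 8.49 over Day 3 (6.63 to 11.53) and was at least 599.6-fold above Day 7. The intervals of *Prr9*, *S100a3*, *Krt35* and *Krtap4-1* did not overlap, so their order in this section is beyond counting error.

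The members share a promoter feature that the choice by name did not use. RefSeq promoters, from 250 bases before to 50 after each start in GRCm38.p6, were given for 60 members. The letters TATAAA, on either strand, occurred in 50 of them (83.3%) and in 15.7% of 27025 genes. On the strand of the gene and starting 40 to 20 bases before the start, they occurred in 35 of the 60 (58.3%) and in 2.41% of all genes. By this narrower count 23 of 35 members that were on at Day 14 held it, and 12 of 25 that were not. CTTTGA, a core of sites bound by Lef1, was present on either strand in 33.3% of members and 18.2% of genes, and CTTTGT, another such core, in 28.3% and 21%. TTTATTG, a core of Hoxc13 sites, was found in 0 members and 5.33% of genes. The 100 bases before the start are shown for the leading gene, for the leading ultra-high sulphur and glycine-tyrosine genes and for *Krtap3-2*, which had UMIs on all days, with TATAAA in capitals.
Prr9: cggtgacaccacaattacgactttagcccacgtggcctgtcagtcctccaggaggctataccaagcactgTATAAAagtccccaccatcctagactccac
Krtap4-1: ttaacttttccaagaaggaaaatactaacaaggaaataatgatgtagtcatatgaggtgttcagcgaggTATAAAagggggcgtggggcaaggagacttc
Krtap8-1: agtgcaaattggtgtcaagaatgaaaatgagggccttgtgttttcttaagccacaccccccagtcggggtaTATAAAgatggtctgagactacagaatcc
Krtap3-2: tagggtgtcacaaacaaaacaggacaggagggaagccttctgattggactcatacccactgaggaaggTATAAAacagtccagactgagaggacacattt
The stretches are chr3:92123948-92124047, minus strand for *Prr9*, chr11:99628240-99628339, minus strand for *Krtap4-1*, chr16:89487953-89488052, minus strand for *Krtap8-1* and chr11:99556854-99556953, minus strand for *Krtap3-2*. The motif started 30, 31, 29 and 32 bases before the start, respectively, in genes that ranged from 3104 to 159 UMIs on Day 14. These are matches of letters and not measured binding sites.

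Most of the few early UMIs came from *Krtap3-2* and *Krt32*. *Krtap3-2* gave 8 of the 18 UMIs on Day 3 and 24 of the 40 on Day 7, and *Krt32* 4 and 9. Without this pair the other members gave 6 UMIs on Day 3 and 7 on Day 7. On Day 3, 6 of the 8 *Krtap3-2* UMIs lay in the 53 spots with at least 2 times the epidermis-list level of the section, which held 13.8% of all UMIs. On Day 7, 12 of the 24 lay in 46 such spots holding 5.18% of UMIs. The log2 ratio of its level in these spots over the others was 4.23 on Day 3 (1.75 to 7.57) and 4.19 on Day 7 (2.91 to 5.48), against -0.28 in the Day 14 section (-0.86 to 0.26). The 8 *Krtap3-2* UMIs of Day 3 came from only 5 spots and the 24 of Day 7 from 19, with up to 4 in a spot on each day. The intervals do not cover such bunching. For *Krt32* the ratio was 2.64 on Day 3 (-1.14 to 6.43) and 3.19 on Day 7 (0.57 to 5.42). Neither gene had a UMI in the muscle-rich or sebaceous-rich spots of those days, but at these counts an equal or higher level there was not excluded.

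Genes of the follicle outside the rule were compared by lists. All 8 inner root sheath genes found were at least 2-fold higher on Day 14 than on Day 3 and than on Day 7. Their summed level was 2.82, 2.93 and 4969 CPM, and *Krt71* gave 0, 1 and 6874 UMIs. Apart from *Tchh*, with 4 and 8 UMIs, each had 0 or 1 UMI on Day 3 and on Day 7. They passed the 10 UMIs through Day 14, so the direction was fixed by the filter, as for the members. The same limit applies to the genes below that had few early UMIs. All 10 regulators of the hair matrix were higher in both comparisons, from 109 and 89.8 to 948 CPM in sum. They include *Hoxc13*, a transcription factor of the shaft with 8, 9 and 577 UMIs, *Msx2* with 1, 9 and 471, and *Shh*, the signal of the matrix, with 0, 6 and 154. The 5 pigment cell genes were higher as well, from 36.7 and 31.1 to 480.3 CPM. Of 12 further shaft and hair enzyme genes, 8 reached the 10 UMIs in each comparison. Of these, 6 were higher than on Day 3 and 8 than on Day 7, among them *Padi3*, which converts arginine in hair proteins, with 0, 7 and 426 UMIs. *Dsg4*, a desmosomal cadherin of the shaft, gave 1 UMI on Day 14, and *Krt39* and *Krt40*, keratins of the late shaft, gave 0.

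Other skin lists moved in both directions. The outer root sheath list summed to 2114, 743 and 1966 CPM, with 4 of 8 genes at least 2-fold higher and 3 lower on Day 14 than on Day 3, and 4 higher and 2 lower than on Day 7. Within it *Krt6b*, a keratin also induced by wounding, gave 706, 187 and 3 UMIs, and *Krt17* 342, 465 and 3969. Of the sebaceous gland list, 0 of 8 genes were higher and 5 lower than on Day 3, and 3 higher and 1 lower than on Day 7, and its sum was 4416, 3293 and 2814 CPM. Of the epidermis list, 3 of 8 genes were higher than on Day 3 and 7 than on Day 7, with none lower, and the sum was 6599, 3692 and 9071 CPM. Of the 6 dividing-cell genes 4 and 5 were higher, and of the 6 dermal papilla genes tested 3 and 4 were higher and 1 lower in each. The muscle list was at 41337, 54847 and 62766 CPM. The part of these shifts in tissue makeup in the member ratios was not tested.

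Within the Day 14 section, member UMIs were found in 654 of the 697 spots, or 93.8% (91.8 to 95.5, exact binomial). The median spot held 11 of them and the richest 413. Muscle-rich spots, chosen as tissue assumed to lack shaft genes, also had them, in 110 of 144 spots (76.4%), but at no more than 10 UMIs in a spot and at a median depth of 2884.5 UMIs against 6215 elsewhere. In the other spots the share was 98.4%. With each spot thinned to 1000 UMIs, the shares were 47.1% (38.4 to 55.8) and 90.4% (87.6 to 92.8). Whether the muscle-rich spots held shaft cells or RNA from elsewhere was not tested. A single UMI was therefore not taken to place a shaft cell in a spot, and levels are given below beside the presence of a UMI.

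Member UMIs were concentrated. The 20 richest spots held 27.6% of them and 6.46% of all UMIs, and each had at least 113. Spots with 10 or more member UMIs numbered 371, and they fell into 5 groups of touching spots and 4 single spots. The largest group of 273 spots held 78.9% of the member UMIs and the next, of 86 spots, 11.8%, with 4256 and 2148 CPM. KAP genes made up a like share of member UMIs in both, 49.9% (49.0 to 50.8) and 49.2% (46.8 to 51.5). *Krt35* made up 8.57% (8.07 to 9.09) in the first and 12.8% (11.3 to 14.5) in the second, and *Prr9* 22% (21.2 to 22.7) and 17.6% (15.8 to 19.5).

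**Figure D3:**
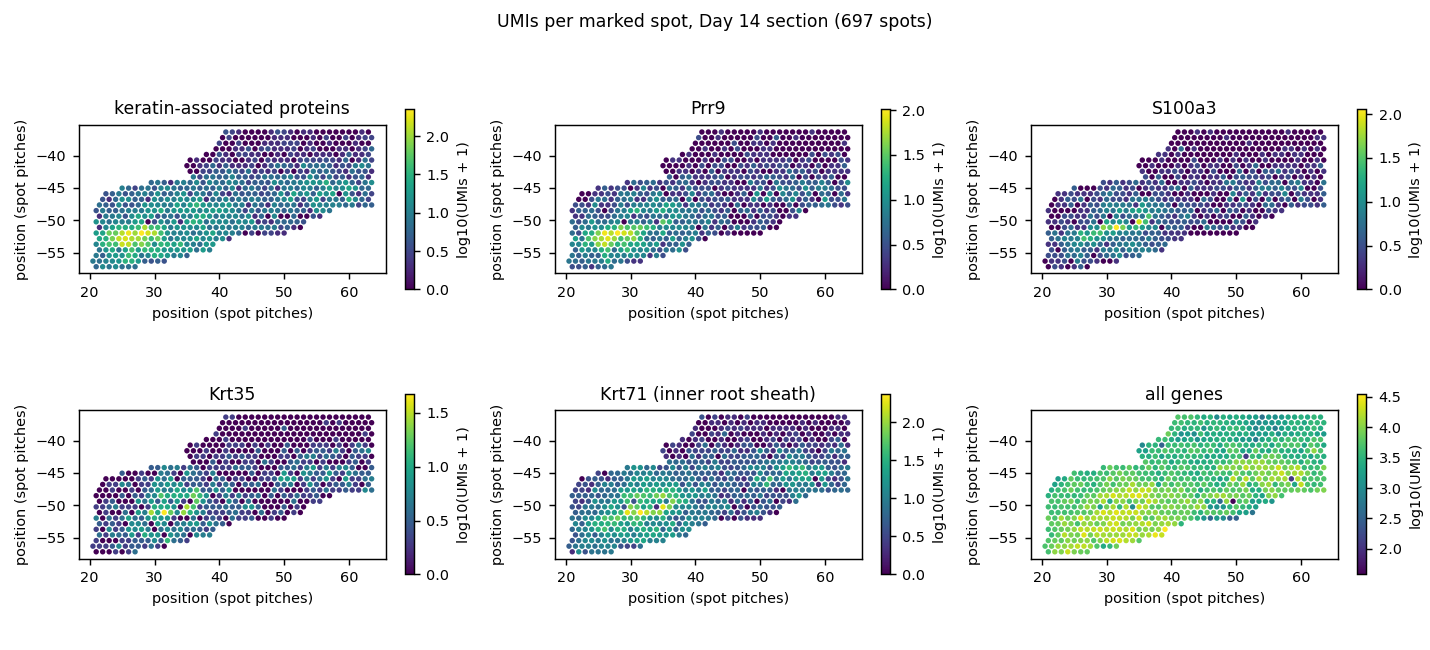
UMIs per marked spot of the Day 14 section for the summed KAP genes, *Prr9*, *S100a3*, *Krt35*, *Krt71* and all genes, as log10(UMIs + 1) for the first 5 and log10(UMIs) for all genes, with spot positions in spot pitches, the distance between neighbouring spot centres. KAP genes and *Prr9* are brightest in one patch at the left, and *S100a3*, *Krt35* and *Krt71* in a patch next to it.

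*Krt71* marks the inner root sheath, the tissue that wraps the growing shaft. Of the 654 spots with a member UMI, 594 also had *Krt71*, or 90.8% (88.3 to 92.9), and of the 606 spots with *Krt71*, 98.0% had a member. Over all 697 spots the shares were 86.9% for *Krt71* and 93.8% for members, so most of this overlap is close to what any spot shows. At 10 UMIs or more of each, 192 spots had both, which was 99.5% of 193 *Krt71* spots, against 53.2% of all spots with 10 member UMIs, and 51.8% of 371 member spots, against 27.7% of all spots with 10 *Krt71* UMIs. Thinned to 1000 UMIs, 64.5% of member spots had *Krt71*, against 59.5% of all thinned spots, and 88.6% of *Krt71* spots had a member, against 81.7%. Member levels were higher at each step of *Krt71*. They were 720.4 CPM in the 91 spots with no *Krt71*, 1377 CPM at 1 to 2 UMIs, 2212 CPM at 3 to 9, 3381 CPM at 10 to 29 and 6223 CPM in the 52 spots with 30 to 231. Median depth was higher at each step too, from 2381 to 16824.5 UMIs per spot, and its part in the UMI counts was not tested, while CPM divides by it. Most spots with no *Krt71* were muscle-rich. *Krt71* was found in 74 of the 144 muscle-rich spots and in 532 of the 553 others. Members were at 647 CPM in the muscle-rich spots and at 3459 CPM in the others. The part of muscle in the low end of these steps was not tested.

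The highest spots for members and for *Krt71* were only partly shared. Of the 20 richest member spots, 7 were among the 20 richest *Krt71* spots. The richest member spot held 413 member and 68 *Krt71* UMIs, and the richest *Krt71* spot 231 *Krt71* and 226 member UMIs. There were 2.15 member UMIs per *Krt71* UMI over the section. Members differed in how much of their UMIs lay in spots chosen by *Krt71* alone. The 20 richest *Krt71* spots held 8.19% of all UMIs, 29.5% of *S100a3*, 27.0% of *Krtap11-1*, 26.0% of *Krt31*, 21.2% of *Krt34* and 21.1% of *Krt35* UMIs, but 17.9% of *Prr9*, 15.4% of *Krt81* and 12.3% of KAP UMIs. Of the other hair keratins with at least 50 UMIs, *Krt32* was at 18.4%, *Krt36* at 17.7%, *Krt33a* at 16.2% and *Krt86* at 14.9%. The share of *Krt31* rests on 50 UMIs, and a single spot held 112 of the *S100a3* UMIs.

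**Figure D4:**
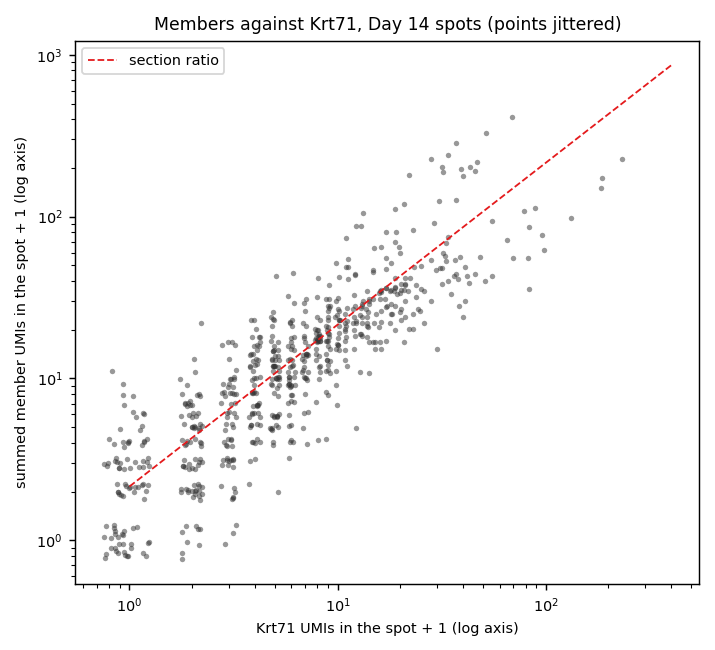
Summed member UMIs (y axis) against *Krt71* UMIs (x axis), each plus 1 on log axes, for the 697 marked spots of Day 14, with small random shifts so that equal values can be seen and a dashed line at the section ratio of 2.15. At high counts the spots part into a branch above the line, which holds the richest spot at 413 member UMIs, and one below it, which holds the richest *Krt71* spot at 231.

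The place of the members relative to the skin surface was measured as the distance from each spot to the nearest of 20 keratinised-surface spots, those with at least 5 times the section level of differentiated epidermis genes. This measure was chosen after the data had been seen. The surface spots lay at positions 21 to 50.5 along the x axis of the map, whereas marked spots ran from 20.5 to 63.5. For spots beyond the last surface spot the value is partly distance along the section and not depth. A spot at 63.5, for example, was given 13.454 pitches. The part of this in the medians and bins below was not tested. The median KAP UMI and the median *Prr9* UMI lay 4.36 pitches from the surface, the median *S100a3* UMI 5.0, *Krt71* 5.20, *Krt35* 5.29 and the median UMI of dividing-cell genes 6.00. For epidermis genes it was 2.0 and for all UMIs 5.57. KAP genes peaked at 3137 CPM (3018 to 3260) from 3.5 to 5.5 pitches and were at 1218 CPM (1136 to 1304) in the next bin, and *Prr9* was at 1445 and 507 CPM in those bins. *Krt35* was at 475 and 377 CPM. The dividing-cell list was at 620 CPM (568 to 676) and 716 CPM (653 to 783) in the same bins. From 7.5 to 9.5 pitches it was at 613 CPM (552 to 680). These intervals overlap, so the place of its peak is not resolved.

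These distances lean on few spots. Of the 20 richest member spots, 15 lay between 3.5 and 5.5 pitches. Without those 20 spots the KAP peak in that bin was 1728 CPM, beside 1218 in the next, and the medians were 5.20 pitches for KAP genes, 4.58 for *Prr9*, 5.29 for *S100a3*, 6.00 for *Krt35*, and 6.08 for *Krt71* and for the dividing-cell list. Without the 20 richest *Krt71* spots the medians were 4.36, 4.36, 5.20, 6.00, 5.57 and 6.08, and the *Krt35* peak moved to the bin from 5.5 to 7.5 pitches. For all UMIs the median was 6.08 in both settings, so the dividing-cell list stood at the section median in both and *Krt71* in the first. *Prr9* and KAP genes kept smaller medians than *Krt35* in both.

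**Figure D5:**
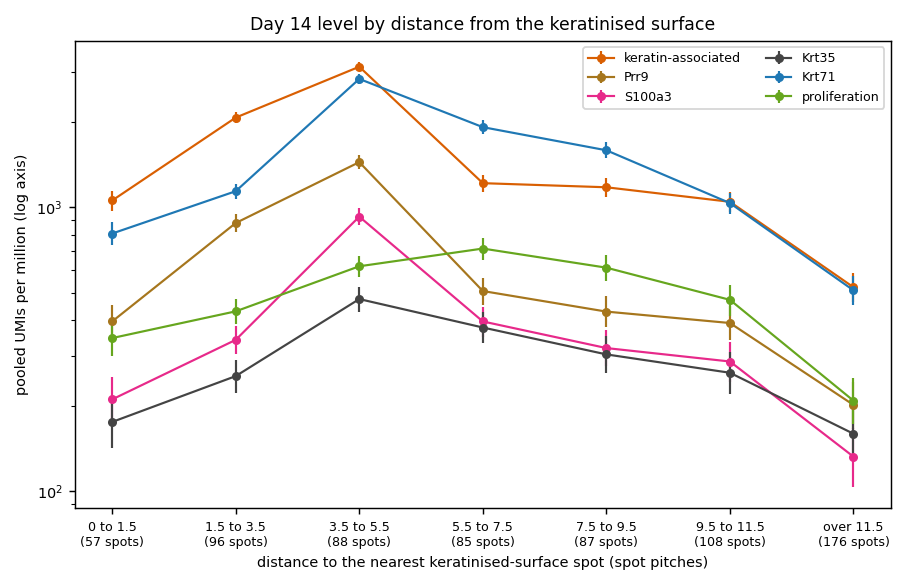
Pooled level on Day 14 (CPM on a log axis, with exact 95% Poisson intervals) by distance to the nearest keratinised-surface spot in spot pitches, for KAP genes, *Prr9*, *S100a3*, *Krt35*, *Krt71* and the dividing-cell list; spots per bin are under the axis. KAP genes reach 3137 CPM and *Prr9* 1445 CPM from 3.5 to 5.5 pitches. The dividing-cell list has its highest value one bin further, with an interval that overlaps those of the bins on either side.

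Across the 697 spots, on log values per 10000 UMIs, members varied with one another and with other skin lists to differing degrees. Ultra-high and high sulphur KAP genes had a Pearson r of 0.518. KAP genes had an r of 0.587 with *Prr9*, 0.387 with *S100a3* and 0.332 with *Krt35*, and of 0.575 with *Krt71*. Their r with the sebaceous gland list, 0.544, and with the epidermis list, 0.528, was close to that with *Krt71*, and the member sum had 0.568 and 0.547 with these lists. With the muscle list r was -0.491 for the member sum, -0.439 for KAP genes and -0.521 for *Krt71*. The part of muscle in the positive values was not tested. *Krt35* had an r of 0.459 with *Krt71* and of 0.271 with the other hair keratins. Among 7381 non-members with at least 100 UMIs, the genes most like the member sum were *Krt71* (0.659), *Krt17* (0.606), *Tchh* (0.603), *Krt27* (0.589) and *Fabp5* (0.586). *Krt17* is a keratin of the outer root sheath, *Krt27* one of the inner root sheath, *Tchh* the granule protein of the sheath, and *Fabp5* a fatty acid carrier of keratinocytes. *Ptma*, *Col1a1*, *Krt5*, *Scd1* and *Lgals7* completed the 10, down to 0.549. The spots share 1 library and differ in depth, with which the member sum had an r of 0.413, so these values are a description.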

How the data were processed

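Visium libraries of 1 wound section each on Day 3, Day 7 and Day 14 were used, grouped by the time in the labels. The authors made the deposited counts with Space Ranger 1.3.0 (build mm10, per the submitters' processing notes): raw UMI counts for 32285 genes in the same 4992 spot barcodes of every slide, with lists of the spots under tissue. No value was normalized before deposit. Spots can hold several cells, and no cell types were assigned.

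The genes and lists were chosen with earlier results of these data known. Levels are the UMIs of a gene summed over marked spots, per 1000000 UMIs of the section (CPM). Sums carry exact Poisson, ratios exact conditional binomial and shares Clopper-Pearson 95% intervals, all for counting error only. A count of 0 was taken as 3 UMIs in a fold, so the floor was 1.69, 0.675 and 0.651 CPM in the order of the days. Such a fold depends on this setting and is not a lower bound. Genes needed at least 10 UMIs over 2 sections for a fold. Spots were thinned to 1000 UMIs once (seed 1), which left out 238, 24 and 18 shallower spots. Muscle-rich, epidermis-rich and sebaceous-rich spots have at least 2 times the list's level in the section; the last 2 kinds and the groups of touching spots were added after the data were seen. Correlations used log values of UMIs per 10000. Named genes were the 10 *Krtap* genes with most Day 14 UMIs, the listed keratins, *S100a3*, *Prr9*, *Gm11563*, the leading gene of each other subfamily and class, up to 5 members above 3 UMIs on earlier days, the 10 most correlated non-members and list genes; members named beyond these, the shared-sequence genes and the provisional genes of the clusters were chosen after their values were seen.

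Codons, positions and shared windows came from GENCODE M21 on GRCm38, the assembly of mm10, and promoters from RefSeq. Protein sequences were not used here, so composition is in codons. Alternatives were other spot weights, denominators, spot and gene minimums, thinning depths, background subtraction, TMM factors (edgeR 4.0.16) and size factors (DESeq2 1.42.0). Python 3.11.15, numpy 2.4.6, scipy 1.17.1, pandas 2.3.3, matplotlib 3.10.9 and R 4.3.3 were used. The ratio intervals were tested on simulated data.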

Additional observations from a re-analysis of the deposited data

Results flagged for a closer look

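Member UMIs also appeared in spots that the position lists do not mark as under tissue, data that the comparisons leave out. The authors describe the selected spots of each slide as the region of interest. Whether unmarked spots lay on tissue was not tested. They held 49.0% and 59.2% of all UMIs of the slide on Day 3 and Day 7. On Day 14 they held 3016 *Krt71* UMIs, and 149 of them had 10 or more member UMIs. The summed level there was 18.8 CPM on Day 3 (12.9 to 26.5, from 32 UMIs in 4328 spots), 8.05 CPM on Day 7 (6.01 to 10.6, from 52 UMIs in 4443 spots) and 1436 CPM on Day 14 (1402 to 1471, from 6773 UMIs in 4295 spots). In the Day 14 slide these spots held 31.5% of member UMIs and 50.6% of all UMIs, and the log2 ratio of their member level over that of marked spots was -1.16 (-1.20 to -1.11). That ratio was 0.89 on Day 3 (0.01 to 1.81) and -0.16 on Day 7 (-0.78 to 0.47). *Krtap3-2* gave 21 and 26 of the UMIs outside the marked tissue on Day 3 and Day 7. Each slide had 1 section, so no value could be compared with replicates.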

How the results depend on the processing

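No paired analysis was possible because each day had 1 section, and no replicate could be left out. The Day 14 sum of 3199 CPM became 2308 with all spots of the slide, 2981 with background subtracted and 2593 as the mean of spot CPM. The log2 ratio of Day 14 over Day 3 became 7.33 with all spots, and that over Day 7 was 7.91 by the mean of spot CPM. Size factors moved all genes by -0.13 and -0.12 (log2) in these ratios. By the mean of spot CPM 1 member was 2-fold higher and 1 lower on Day 7 than on Day 3, and the log2 ratio of the sums was 0.20 in place of -0.17, which the counting interval spans. Of member spots, the share with *Krt71* was 81.6% at 3 UMIs, 51.8% at 10, and 44.6%, 64.5% and 83.1% after thinning to 500, 1000 and 2000 UMIs. Of *Krt71* spots, the share with a member was 99.5% at 10 UMIs, and 67.7% and 88.6% after thinning to 500 and 1000. The log2 ratio of member level in *Krt71* spots over other spots was 2.21, and 1.62 or 1.21 with *Krt71* at 3 or 10 UMIs, 2.72 with the rest of the sheath list and 1.92 by the mean of spot CPM. For the first of these, most of the other spots were muscle-rich. Further alternatives were chosen after seeing the data. Without *Krtap3-2* and *Krt32* the sums were 3.39, 1.58 and 3100 CPM, and Day 14 lay above Day 3 and Day 7 by log2 ratios of 9.84 and 10.94, with -1.10 between the earlier days. The Day 14 sum was 2477 CPM without its 20 richest member spots and 3623 with the provisional genes of the clusters. Day 14 was above both other days under every alternative run. The cause of these shifts was not tested beyond what each alternative removes. The Day 3 section was the shallowest and carries the widest intervals.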
